A study of Homo sapiens with 9 samples.

Results

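The genes described here are 10 components of the transforming growth factor beta (TGF-beta) pathway in the Ewing sarcoma cell line TC-32. They are the ligands TGFB1, TGFB2 and TGFB3, the latency protein LTBP1, the receptors TGFBR1, TGFBR2 and TGFBR3, the transducer SMAD3, the feedback inhibitor SMAD7 and the response gene TGFBI. They were taken by gene symbol, as a set drawn up with earlier results of these data known, and are 10 of the 58381 genes in the deposited tables. All 10 passed the filter on low counts that left 17235 genes for testing.

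RNA-seq was done on 9 libraries of TC-32, a line driven by the fusion oncoprotein EWSR1::FLI1, which all 3 groups carry. The RFP group (3 libraries) received the lentiviral pLOC vector with RFP. The ETS1-Low and ETS1-High groups (3 libraries each) received pLOC with a human cDNA of ETS1, a transcription factor of the ETS family. Transduced cells were selected with puromycin and sorted as single cells, and the ETS1 groups were clones picked for a lower or a higher ETS1 level, the higher being set to match EWSR1::FLI1-depleted cells. The number of clones behind each group was not given, so the ETS1 level and the clone cannot be told apart in any difference below. No source says that the libraries of a group came from separate cultures, so the p-values measure the spread between these libraries, which may be technical.

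TGF-beta ligands are secreted as latent complexes with their own propeptide, which LTBP proteins tether to the extracellular matrix. Released ligand binds the serine/threonine kinase receptor TGFBR2, which recruits and phosphorylates TGFBR1. TGFBR1 in turn phosphorylates SMAD2 and SMAD3, which enter the nucleus with SMAD4. TGFBR3 (betaglycan) is a co-receptor that presents ligand, TGFB2 in particular. SMAD7 is induced by the pathway and blocks TGFBR1. In Ewing sarcoma TGFBR2 is known as a gene that EWSR1::FLI1 represses.

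The libraries held 39484704 to 46654734 expected counts. ETS1 itself was measured at 1.81, 2.03 and 2.15 CPM, counts scaled to library size with the trimmed mean of M-values (TMM), in RFP. It was at 10.6, 10.9 and 10.3 CPM in ETS1-Low and 19.4, 18.2 and 19.7 CPM in ETS1-High, so the order of the groups matched their labels without overlap. All 7 Ewing sarcoma markers were detected, summing to 903 to 920 CPM in the RFP libraries, 1185 to 1192 CPM in those of ETS1-Low and 1236 to 1302 CPM in those of ETS1-High. The markers did not rise alike. CD99 had means of 331 (RFP), 486 (ETS1-Low) and 590 CPM (ETS1-High), and NR0B1 of 335, 417 and 369 CPM. GLI1 alone of the 7 had lower means in both ETS1 groups, at 1.41 (RFP), 0.561 (ETS1-Low) and 0.711 CPM (ETS1-High). Summed markers of other cell types stayed at 0.66 to 2.57 CPM for blood cells (4 genes, with CD3E at 0 in all libraries) over the 9 libraries. The 2 endothelial markers summed to 1.64 to 1.91 CPM in RFP and 4.97 to 5.56 CPM in ETS1-High, nearly all of it PECAM1. The 3 epithelial markers summed to 0.0427 to 0.187 CPM (RFP), 0.899 to 1.33 CPM (ETS1-Low) and 2.01 to 3.05 CPM (ETS1-High). That rise was KRT5, with means of 0.0208, 0.858 and 2.39 CPM, while EPCAM and CDH1 had at most 9 counts in any library. The part of these shifts in the results below was not tested.

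The 250 bases upstream of a RefSeq transcription start (build GRCh38.p14) are shown for 4 genes with different patterns of rise in the ETS1 groups. Members that fell or changed little are not shown. RefSeq held 2 entries for TGFBR2 and 3 for LTBP1, and the start nearest the canonical start in the GENCODE annotation was taken. TGFBR2 (chr3:30606351-30606600, plus strand) rose in both ETS1 groups, TGFB2 (chr1:218345086-218345335, plus strand) and LTBP1 (chr2:32946703-32946952, plus strand) were far above both other groups in ETS1-High, and TGFBR3 (chr1:91886152-91886401, minus strand) was highest in ETS1-Low. The antisense gene TGFB2-AS1 overlaps exons of TGFB2, and whether it also overlaps the TGFB2 window was not tested. Capitals mark the ETS core motif GGAA, or TTCC where it lies on the other strand.
TGFBR2: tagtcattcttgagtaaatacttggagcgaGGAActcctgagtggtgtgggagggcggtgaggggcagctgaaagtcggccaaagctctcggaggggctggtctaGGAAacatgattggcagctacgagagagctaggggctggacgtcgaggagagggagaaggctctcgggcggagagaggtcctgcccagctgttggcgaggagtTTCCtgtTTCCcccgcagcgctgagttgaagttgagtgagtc
TGFB2: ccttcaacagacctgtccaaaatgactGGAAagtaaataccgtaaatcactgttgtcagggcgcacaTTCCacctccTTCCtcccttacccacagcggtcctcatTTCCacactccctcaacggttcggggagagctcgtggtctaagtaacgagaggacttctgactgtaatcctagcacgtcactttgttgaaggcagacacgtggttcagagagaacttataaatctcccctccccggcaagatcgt
LTBP1: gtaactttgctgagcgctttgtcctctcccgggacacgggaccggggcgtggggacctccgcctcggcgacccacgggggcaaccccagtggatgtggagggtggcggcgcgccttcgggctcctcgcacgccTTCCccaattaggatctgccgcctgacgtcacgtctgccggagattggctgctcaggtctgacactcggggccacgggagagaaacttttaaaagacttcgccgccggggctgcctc
TGFBR3: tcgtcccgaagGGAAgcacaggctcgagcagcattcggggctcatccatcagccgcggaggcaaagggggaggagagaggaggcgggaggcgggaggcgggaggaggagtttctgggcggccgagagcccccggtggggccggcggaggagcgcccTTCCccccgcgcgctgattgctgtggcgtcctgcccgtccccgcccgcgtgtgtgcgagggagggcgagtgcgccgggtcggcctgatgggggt

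These windows held 4 GGAA matches on either strand in TGFBR2, 4 in TGFB2, 1 in LTBP1 and 2 in TGFBR3. The same windows of the other members held 2 (TGFB1), 4 (TGFB3), 0 (TGFBR1), 1 (SMAD3), 3 (SMAD7) and 3 (TGFBI). Across 35116 RefSeq promoters of this length 92.7% held at least 1 GGAA, with a median of 3 matches. The longer ETS motif CCGGAA (in 14.5% of all promoters), the SMAD palindrome GTCTAGAC (0.182%) and the AP-1 motif TGANTCA (6.57%), searched on both strands, had no match in any of the 10 windows. A match here describes the letters of the window and is no evidence of binding.

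In ETS1-High against RFP all 10 genes passed the test (adjusted p under 0.05, edgeR's quasi-likelihood test with Benjamini-Hochberg adjustment over all genes). Of these 8 were higher and 2, TGFB3 and TGFBR1, were lower. Across all genes tested 74.2% passed, 37.0% as higher and 37.2% as lower. At least 2-fold changes passing the test were found in 7 members, all higher, against 21.0% of all genes (9.64% higher and 11.4% lower at that size). The 10 genes had a median log2 fold change of 1.66, beside -0.01 over all genes. In ETS1-Low against RFP 9 passed, 6 higher and 3 lower, beside 74.1% of all genes (37.9% higher and 36.2% lower). Changes of at least 2-fold were found in 5 (20.6% of all genes), of which 4 were higher (8.47% of all genes) and 1 was lower (12.2%). The median log2 fold change of the members was 0.38, beside 0.01 over all genes. In ETS1-High against ETS1-Low 9 passed, 7 higher and 2 lower, beside 59.2% of all genes (29.9% higher and 29.3% lower). Of these, 5 differed by at least 2-fold, beside 9.74% of all genes, and all 5 were higher in ETS1-High (6.05% of all genes higher and 3.69% lower at that size). Libraries of the groups did not overlap for 10, 9 and 9 members in the 3 comparisons, where 75.5%, 76.0% and 63.2% of all genes did not. Since most genes passed in every comparison, the size of a change tells more than the call. The 10 genes were chosen with earlier results of these data known. Their counts and medians beside those of all genes therefore describe the set and are no test of it. The 3 comparisons share libraries. In RNA from bulk cultures, a change in the number of cells that express a gene and a change in RNA per cell cannot be told apart.

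**Figure D1:**
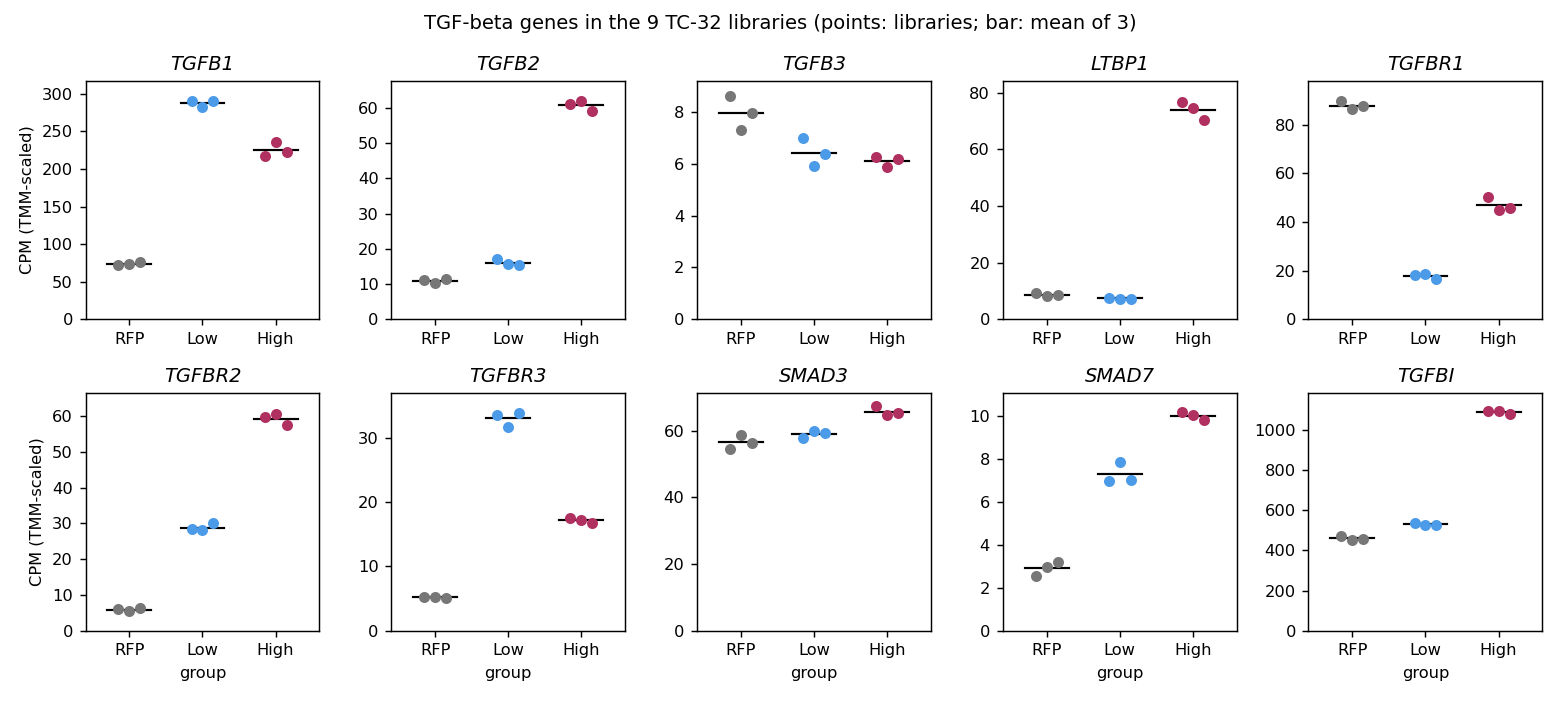
CPM (TMM-scaled, linear axes from 0) of each of the 10 genes in the 3 RFP, 3 ETS1-Low and 3 ETS1-High libraries, with points for libraries and a bar for the mean of 3. TGFB2 and LTBP1 stand far higher in ETS1-High than in both other groups, TGFBR3 and TGFB1 are higher in ETS1-Low than in ETS1-High, and TGFBR1 is lowest in ETS1-Low.

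Among the ligands, TGFB1 and TGFB2 rose in both ETS1 groups, but in opposite order, and TGFB3 fell slightly in both. TGFB1 (ENSG00000105329.9, chr19:41301587-41353922 in GRCh38, as all positions here, minus strand) is the ligand found in most tissues. It was measured at 71.8, 73.4 and 76.0 CPM in RFP, 291, 283 and 291 CPM in ETS1-Low and 218, 235 and 222 CPM in ETS1-High. All 3 groups were separate, with ETS1-Low the highest. TGFB1 was 3.91-fold higher in ETS1-Low than in RFP (log2 fold change 1.97, SE 0.033) and 3.05-fold higher in ETS1-High (1.61, SE 0.033). The ETS1-High libraries lay below ETS1-Low (log2 difference -0.36, SE 0.031, adjusted p = 1.53e-14, edgeR). Exons of TGFB1 overlap HNRNPUL1 on the opposite strand, and whether the counting used strand is not given in the sources used here, so some reads may belong to either gene.

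TGFB2 (ENSG00000092969.11, chr1:218345336-218444619, plus strand) is an isoform that binds TGFBR2 weakly without betaglycan. Its level was 11.1, 10.3 and 11.3 CPM in RFP and 17.1, 15.6 and 15.5 CPM in ETS1-Low. In ETS1-High it was 61.3, 61.9 and 59.2 CPM, well above every library of the other groups. Relative to RFP it rose by 2.48 (SE 0.048) on the log2 scale in ETS1-High and by 0.56 (SE 0.056) in ETS1-Low. ETS1-High exceeded ETS1-Low 3.79-fold (1.92, SE 0.047, adjusted p = 1.11e-36, edgeR), and 4.4% of all tested genes differed by more between these groups. The antisense gene TGFB2-AS1 and the same-strand TGFB2-OT1 overlap exons of TGFB2.

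TGFB3 (ENSG00000119699.7, chr14:75958097-75983011, minus strand) is an isoform best known in mesenchymal tissue and palate development. The RFP libraries held 8.62, 7.32 and 7.95 CPM, those of ETS1-Low 6.98, 5.91 and 6.40 CPM and those of ETS1-High 6.25, 5.90 and 6.18 CPM. RFP lay above both ETS1 groups, which overlapped each other. It fell by 0.38 on the log2 scale in ETS1-High (SE 0.085, adjusted p = 7.59e-05, edgeR) and by 0.31 in ETS1-Low (SE 0.085). Between ETS1-High and ETS1-Low the log2 difference was -0.07, with a 95% interval of -0.25 to 0.11. Exons of TGFB3 overlap TGFB3-AS1 on the opposite strand.

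Levels of different genes can be compared only per length, here in the deposited FPKM, which scales fragments by transcript length and depth. The 3 ligands summed to 41.4 ± 1.2 FPKM in RFP, 122 ± 2.5 in ETS1-Low and 111 ± 2.4 in ETS1-High (SD, n = 3 each). TGFB1 made up 79.2% of this sum in RFP, 93.5% in ETS1-Low and 82% in ETS1-High. The share of TGFB2 was 7.59% ± 0.54 in RFP, 3.25% ± 0.32 in ETS1-Low and 14.4% ± 0.96 in ETS1-High. That of TGFB3 went from 13.2% in RFP to 3.25% in ETS1-Low and 3.59% in ETS1-High. The 3 groups did not overlap in the summed level, which was highest in ETS1-Low, and the share of TGFB2 was highest in ETS1-High.

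LTBP1 (ENSG00000049323.15, chr2:32946953-33399509, plus strand) separated the 2 ETS1 groups more than any other member. It was at 9.08, 8.34 and 8.58 CPM in RFP, 7.59, 7.23 and 7.15 CPM in ETS1-Low and 76.7, 74.7 and 70.4 CPM in ETS1-High. The ETS1-Low libraries lay just under RFP, and the ETS1-High libraries far over both. Against RFP it was 8.52-fold higher in ETS1-High (log2 fold change 3.09, SE 0.049, adjusted p = 1.24e-45, edgeR) and changed by -0.25 (SE 0.066, adjusted p = 8.43e-04, edgeR) in ETS1-Low. ETS1-High exceeded ETS1-Low 10.1-fold (3.34, SE 0.052), a larger difference than in all but 1.49% of the genes tested. The gene ENSG00000285577 overlaps an exon of LTBP1 on the opposite strand.

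**Figure D2:**
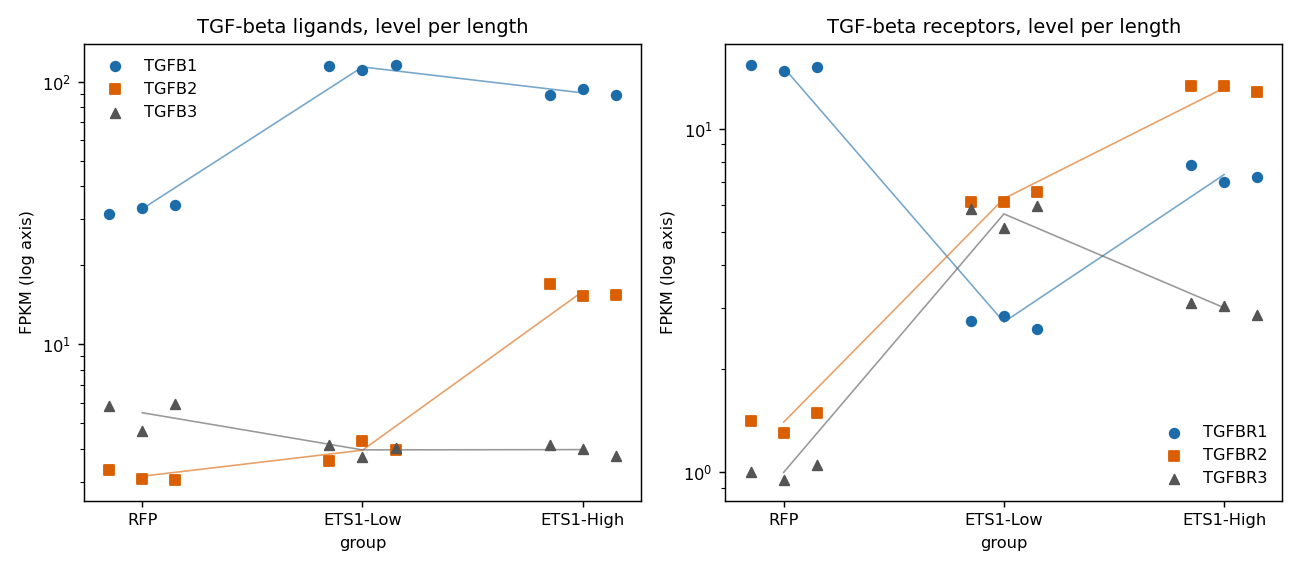
FPKM on a log axis of the 3 ligands (left) and the 3 receptors (right) in each library (points), with lines joining the group means. TGFBR2 stands under TGFBR1 in RFP, at 1.40 and 15.1 FPKM, and above it in both ETS1 groups, while TGFB1 is the highest ligand in every library.

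The receptors changed in opposite directions: TGFBR2 and TGFBR3 rose in both ETS1 groups and TGFBR1 fell in both. TGFBR2 (ENSG00000163513.17, chr3:30606601-30694142, plus strand), the ligand-binding type II receptor, was measured at 5.99, 5.42 and 6.29 CPM in RFP. It was at 28.3, 28.1 and 30.1 CPM in ETS1-Low and 59.8, 60.6 and 57.5 CPM in ETS1-High. The groups rose in the order of their ETS1 level without overlap. TGFBR2 was 10.05-fold higher in ETS1-High than in RFP (log2 fold change 3.33, SE 0.053, adjusted p = 1.38e-45, edgeR), and 4.51% of all tested genes changed by more. It was 4.89-fold higher in ETS1-Low than in RFP (2.29, SE 0.057) and ETS1-High exceeded ETS1-Low 2.06-fold (1.04, SE 0.043).

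TGFBR1 (ENSG00000106799.12, chr9:99104038-99154192, plus strand), the type I receptor kinase, stood at 89.6, 86.4 and 87.6 CPM in RFP, 18.0, 18.6 and 16.7 CPM in ETS1-Low and 50.2, 44.8 and 45.8 CPM in ETS1-High. All 3 groups were separate, with ETS1-Low the lowest. It was 4.94-fold lower in ETS1-Low than in RFP (log2 fold change -2.31, SE 0.044, adjusted p = 2.92e-41, edgeR) and 1.88-fold lower in ETS1-High (-0.91, SE 0.038). Between the ETS1 groups it was 2.64-fold higher in ETS1-High (1.40, SE 0.046).

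TGFBR3 (ENSG00000069702.10, chr1:91680343-91906335, minus strand), the co-receptor betaglycan, was at 5.26, 5.23 and 5.10 CPM in RFP, 33.6, 31.7 and 33.8 CPM in ETS1-Low and 17.5, 17.1 and 16.7 CPM in ETS1-High. As for TGFB1, ETS1-Low was the highest group, and no groups overlapped. The rise over RFP was 6.35-fold in ETS1-Low (log2 fold change 2.67, SE 0.061) and 3.29-fold in ETS1-High (1.72, SE 0.064). ETS1-High was 1.93-fold lower than ETS1-Low (-0.95, SE 0.052, adjusted p = 1.34e-21, edgeR).

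Per length, TGFBR1 was the most abundant of the 3 receptors in RFP, at 15.1 ± 0.33 FPKM, with TGFBR2 at 1.40 ± 0.095 and TGFBR3 at 1.00 ± 0.05 (SD, n = 3). In ETS1-Low TGFBR2 was at 6.26, TGFBR3 at 5.65 and TGFBR1 at 2.74 FPKM. In ETS1-High TGFBR2 was at 13.1, TGFBR1 at 7.35 and TGFBR3 at 3.01 FPKM. The ratio of TGFBR2 to TGFBR1 in a library was thus 0.0929 ± 0.0051 in RFP, 2.29 ± 0.19 in ETS1-Low and 1.79 ± 0.11 in ETS1-High (SD, n = 3), and the RFP libraries did not overlap the others. The ratio of TGFBR3 to TGFBR1 was 0.0664 in RFP, 2.07 in ETS1-Low and 0.411 in ETS1-High. The order of the receptors was therefore different in each of the 3 groups.

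SMAD3 (ENSG00000166949.15, chr15:67063763-67195173, plus strand), the receptor-activated transducer, changed little. It was at 54.6, 58.7 and 56.3 CPM in RFP, 57.8, 60.0 and 59.2 CPM in ETS1-Low and 67.3, 64.6 and 65.2 CPM in ETS1-High. RFP and ETS1-Low overlapped, and ETS1-High lay above both. The log2 fold change in ETS1-High against RFP was 0.22 (SE 0.035, adjusted p = 3.10e-07, edgeR) and against ETS1-Low 0.15 (SE 0.035). On the log2(FPKM + 1) scale of limma these were 0.15 and 0.11 and no longer passed the test. In ETS1-Low against RFP the value was 0.06, with a 95% interval of -0.01 to 0.13 (adjusted p = 0.108, edgeR). Exons of SMAD3 overlap ENSG00000259347 on the opposite strand.

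SMAD7 (ENSG00000101665.8, chr18:48919853-48950965, minus strand), the inhibitory SMAD, rose in the order of the ETS1 level from a low base. It was at 2.54, 2.97 and 3.22 CPM in RFP (122 to 157 counts), 6.96, 7.87 and 7.03 CPM in ETS1-Low and 10.2, 10.1 and 9.81 CPM in ETS1-High, without overlap between groups. It was 3.44-fold higher in ETS1-High (log2 fold change 1.78, SE 0.093) and 2.51-fold higher in ETS1-Low (1.33, SE 0.096) than in RFP. The step from ETS1-Low to ETS1-High was 0.46 (SE 0.083, adjusted p = 4.92e-06, edgeR).

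TGFBI (ENSG00000120708.16, chr5:136028988-136063818, plus strand) encodes a secreted matrix protein named for its induction by TGF-beta. Its level was 474, 450 and 456 CPM in RFP, 538, 527 and 526 CPM in ETS1-Low and 1097, 1096 and 1077 CPM in ETS1-High. The 3 groups were separate, and ETS1-High stood apart from the other two. It was 2.37-fold higher in ETS1-High than in RFP (log2 fold change 1.24, SE 0.029, adjusted p = 6.39e-38, edgeR) and 1.15-fold higher in ETS1-Low (0.20, SE 0.029). ETS1-High exceeded ETS1-Low 2.05-fold (1.04, SE 0.029).

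Ordered by level per length in RFP, TGFBI (242 FPKM) was followed by TGFB1 (32.8), TGFBR1 (15.1), SMAD3 (11.6), TGFB3 (5.49), TGFB2 (3.14), LTBP1 (1.88), TGFBR2 (1.40), SMAD7 (1.29) and TGFBR3 (1.00). TGFBR2 and SMAD7 overlapped between libraries. In ETS1-Low LTBP1, at 1.46 FPKM, was the lowest, and 2 pairs of neighbours overlapped, TGFB3 with TGFB2 (3.96 and 3.95 FPKM) and TGFBR1 with SMAD7 (2.74 and 2.71). In ETS1-High TGFBI (539 FPKM) and TGFB1 (90.8) again led. TGFB2 (15.9), LTBP1 (14.5), TGFBR2 (13.1) and SMAD3 (13.1) came next, with LTBP1 not overlapping TGFB2 or TGFBR2 and SMAD3 overlapping LTBP1 and TGFBR2. TGFBR1 (7.35) followed, then TGFB3 (3.97) and SMAD7 (3.80), which overlapped, and TGFBR3 (3.01).

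Neighbouring genes gave a local baseline, taken as the median log2 fold change of expressed genes (mean log2 CPM above 1) within 10 Mb on either side, with no test. TGFBR2, among 57 such genes, had neighbours at 0.12 (ETS1-High) and -0.01 (ETS1-Low) relative to RFP and stood 3.21 and 2.30 above them. For TGFBR1, among 73 genes, the neighbours were at -0.56 in ETS1-Low against RFP, where 89.0% of them were lower as TGFBR1 was. Against this baseline TGFBR1 was lower by a log2 difference of -1.74 in ETS1-Low and -0.82 in ETS1-High. Between the ETS1 groups the neighbours of TGFBR1 were at 0.46, higher in ETS1-High, and 90.4% of them shared that sign. The part of the region in the change of TGFBR1 was not tested beyond this difference. SMAD3, among 131 genes, lay in a region at 0.34 in ETS1-Low and -0.07 in ETS1-High against RFP, so that it differed from its neighbours by -0.28 in the first and 0.28 in the second. For the other 7 genes the neighbours ranged from -0.29 to 0.42 over the 3 comparisons. In ETS1-Low against RFP those of TGFB2, TGFB3, LTBP1 and TGFBI were at -0.07, -0.16, 0.39 and -0.29. Relative to them these genes, which changed by less than 2-fold there, were at 0.63, -0.15, -0.64 and 0.50. Every change of at least 2-fold against RFP stayed over 2-fold relative to the neighbours. Between ETS1-High and ETS1-Low, TGFBR1, TGFBR2 and TGFBI were 0.94, 0.94 and 0.99 above theirs, just short of 2-fold.

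**Figure D3:**
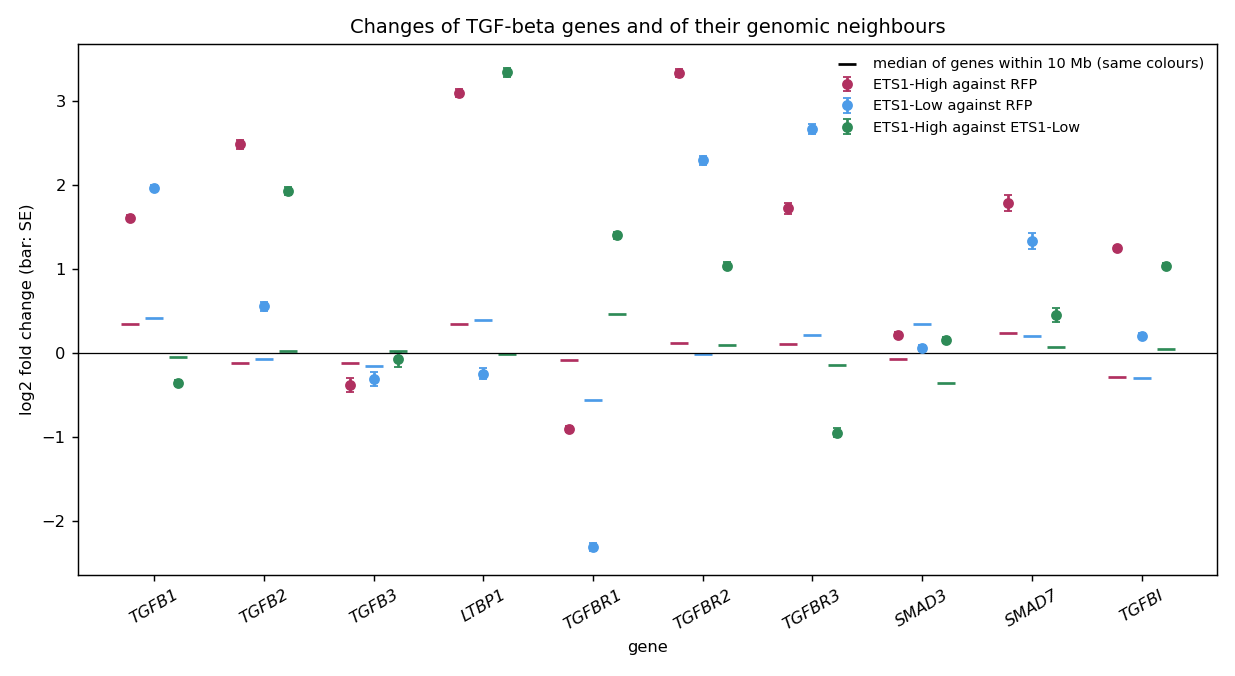
Log2 fold changes of the 10 genes (points, with SE bars) in the 3 comparisons, and the median of expressed genes within 10 Mb (short horizontal marks, same colours). TGFBR2 and LTBP1 in ETS1-High against RFP stand more than 2.7 above their neighbours, and TGFBR1 in ETS1-Low is the point farthest below 0, with its neighbours at -0.56.

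The wider pathway was described with a list of 121 genes in 5 roles, also drawn up with earlier results of these data known. Of these, 107, the 10 members included, passed the filter on low counts. In ETS1-High against RFP 88 of these 107 (82.2%) passed the test, 59 higher and 29 lower, beside 74.2% of all genes (37.0% higher and 37.2% lower), and the median log2 change over the list was 0.21. In ETS1-Low against RFP 89 (83.2%) passed, 40 higher and 49 lower, beside 74.1% of all genes (37.9% higher and 36.2% lower). The median over the list was -0.03. In ETS1-High against ETS1-Low 85 (79.4%) passed, 61 higher and 24 lower, beside 59.2% of all genes (29.9% higher and 29.3% lower). Here the median was 0.22. The medians over all genes were -0.01, 0.01 and 0.00. Those of the list were the same with the fold changes of 3, 2 and 3 genes, which had at most 3 counts in every library of a group, set to the bound that 3 counts per library allow. Without the 10 members the list gave 51 higher and 27 lower in ETS1-High and 34 higher and 46 lower in ETS1-Low, of 97 tested.

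Ligands and genes of their storage and release had the largest median difference of the 5 roles between ETS1-High and ETS1-Low, at 0.93. Of 21 tested, 14 rose and 5 fell in ETS1-High (37.0% and 37.2% of all genes), with a median of 0.71. In ETS1-Low 7 rose and 12 fell (37.9% and 36.2% of all genes), with a median of -0.25. LTBP3 and LTBP4, further latency proteins, rose in both, by 0.74 (SE 0.033) and 0.71 (SE 0.031) in ETS1-High and by 0.40 and 0.50 in ETS1-Low. Their neighbours within 10 Mb were at 0.41 and 0.35 in ETS1-High and at 0.45 and 0.42 in ETS1-Low, where LTBP3 and LTBP4 differed from them by only -0.05 and 0.08. FURIN, the protease that cleaves the ligand precursor, was 1.94-fold higher in ETS1-High and 1.97-fold higher in ETS1-Low. FBN2, a microfibril protein to which LTBPs attach, fell in both. It went from 26.1 to 27.7 CPM in RFP to 0.370 to 0.464 CPM in ETS1-Low (14 to 19 counts) and 0.717 to 0.823 CPM in ETS1-High (29 to 37 counts). FBN1, a related gene of the list with 547 to 2165 counts over the libraries, did not follow FBN2. FBN1 rose by 1.27 in ETS1-High and fell by 0.36 in ETS1-Low (adjusted p = 2.63e-15 and 3.99e-05, edgeR). BGN, a matrix proteoglycan that binds TGF-beta, rose in ETS1-High (0.57, SE 0.091) and fell in ETS1-Low (-3.46, SE 0.15). ITGAV, the integrin subunit that takes part in activation of latent ligand, rose by 0.25 in ETS1-High and fell by 0.25 in ETS1-Low. On the log2(FPKM + 1) scale of limma its rise in ETS1-High was 0.09 and did not pass the test. The neighbours of ITGAV were at 0.70 in ETS1-High and 0.47 in ETS1-Low, above the gene in both.

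Of 10 receptors and co-receptors tested, 5 rose and 3 fell in ETS1-High (37.0% and 37.2% of all genes). In ETS1-Low 5 rose and 5 fell (37.9% and 36.2% of all genes). Beside the members, the co-receptor ENG (endoglin) had means of 25.4 (RFP), 33.3 (ETS1-Low) and 41.8 CPM (ETS1-High) and rose by 0.39 and 0.72. Its neighbours were lower than in RFP, at -0.55 in ETS1-Low and -0.12 in ETS1-High. Between the ETS1 groups ENG was 0.33 higher in ETS1-High, with its neighbours at 0.43. BAMBI, a pseudoreceptor that dampens the signal, rose by 0.83 in ETS1-Low and 0.51 in ETS1-High, with its neighbours at 0.35 and 0.12. The activin receptors ACVR2B and ACVR1B fell in both ETS1 groups, by 0.66 and 0.31 in ETS1-High. ACVR2A fell in ETS1-Low (-0.39, SE 0.083) and was at 7.71 CPM in ETS1-High and 7.72 CPM in RFP. On the log2(FPKM + 1) scale of limma it was lower in ETS1-High too (-0.24, adjusted p = 0.00733). The 25 neighbours of ACVR2A, as defined above, were higher in both ETS1 groups, at 1.01 and 0.77.

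SMADs and other transducers had the smallest share of called genes of the 5 roles, at 57.9% in both comparisons against RFP (74.2% and 74.1% of all genes) and 63.2% between the ETS1 groups (59.2% of all genes). Of 19 tested, 8 rose and 3 fell in ETS1-High (37.0% and 37.2% of all genes), with a median of 0.04. In ETS1-Low 5 rose and 6 fell (37.9% and 36.2% of all genes), with a median of -0.03. None passed 2-fold in ETS1-High and 1, DAB2, did in ETS1-Low, beside 21.0% and 20.6% of all genes. SMAD2, the partner of SMAD3, rose by 0.53 in ETS1-High and 0.49 in ETS1-Low, with its neighbours at 0.24 in both. SMAD4, the common SMAD, rose by 0.39 and 0.30, and the coactivator EP300 by 0.68 and 0.54. The rise of SMAD4 in ETS1-Low was 0.09 and not called on unfiltered log2(FPKM + 1) values (adjusted p = 0.0847, limma). In ETS1-Low the neighbours of SMAD4 and EP300 were at 0.28 and 0.49, which left 0.01 and 0.05 for the genes. DAB2, an adaptor that links receptors to SMADs, fell by 1.48 in ETS1-Low and by 0.34 in ETS1-High, with its neighbours at -0.49 and -0.33. USP11, a deubiquitinase of the receptors, fell by 0.46 in ETS1-Low and was -0.02 (SE 0.031) in ETS1-High, where it passed as lower with upper-quartile scaling (-0.08) and on the log2(FPKM + 1) scale of limma (-0.15, adjusted p = 0.0025). TAB2, an adaptor of the kinase TAK1, fell by 0.25 in ETS1-Low and rose by 0.11 in ETS1-High, where its libraries overlapped those of RFP. That rise was lost with upper-quartile scaling (0.05) and on the log2(FPKM + 1) scale of limma (0.02).

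Among 16 inhibitors, 10 rose and 4 fell in ETS1-High (37.0% and 37.2% of all genes). In ETS1-Low 9 rose and 6 fell (37.9% and 36.2% of all genes). SMAD6, the other inhibitory SMAD, rose in both, by 0.49 in ETS1-High and 0.56 in ETS1-Low. Its neighbours were at -0.06 and 0.35, so that it stood 0.55 and 0.21 above them. The SMAD corepressor TGIF1 rose by 0.71 and 0.68, with its neighbours at 0.62 and 0.58, so that it stood 0.09 and 0.10 above them (-0.16 in ETS1-High with a window of 5 Mb). Its paralogue TGIF2 fell by 0.72 in both, with neighbours at -0.06. STRAP, which stabilises SMAD7 at the receptor, fell by 0.58 and 0.49. SKIL, a SMAD corepressor that the pathway itself induces, rose by 0.46 in ETS1-High and fell by 0.17 in ETS1-Low. PMEPA1, another induced inhibitor, fell in ETS1-Low (-2.60, SE 0.12), to a mean of 1.15 CPM, and the means of RFP and ETS1-High were 6.99 and 7.27 CPM. On the log2(FPKM + 1) scale of limma it was at -0.36 in ETS1-High against RFP (adjusted p = 0.0485).

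Of 41 response genes tested, 22 rose and 14 fell in ETS1-High (37.0% and 37.2% of all genes), with a median of 0.21. In ETS1-Low 14 rose and 20 fell (37.9% and 36.2% of all genes), with a median of -0.17. Between the ETS1 groups 24 were higher in ETS1-High and 13 lower (29.9% and 29.3% of all genes), with a median of 0.40. TIMP3, a metalloproteinase inhibitor, was 22.4-fold higher in ETS1-High than in RFP (25.7 and 1.14 CPM, SD 0.72 and 0.17, n = 3) and 2.31-fold higher in ETS1-Low, where it stood 0.90 above its neighbours on the log2 scale. CCN1, a matricellular protein, rose 7.58-fold and 2.93-fold, and ID3, an inhibitor of basic helix-loop-helix factors that BMP signals also induce, 6.77-fold and 4.56-fold. HMGA2, a chromatin protein, fell in both groups (-2.58, SE 0.042, in ETS1-High and -1.92, SE 0.040, in ETS1-Low). CDH2 (N-cadherin) was at 26.5 to 27.1 CPM in RFP and 19.0 to 19.8 CPM in ETS1-High, and at 0.317 to 0.511 CPM (13 to 23 counts) in ETS1-Low. MMP2, a gelatinase, rose in ETS1-High (0.62, SE 0.031) and fell in ETS1-Low (-0.85, SE 0.033).

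A further 4 widely used response genes were chosen after their values were seen. CCN2 (connective tissue growth factor) fell by 0.21 in ETS1-High and 0.85 in ETS1-Low, with its neighbours at -0.13 and -0.18. The smooth muscle gene ACTA2 fell by 0.49, with its neighbours at -0.47, and by 1.79, with its neighbours at -0.05, while TAGLN rose by 0.50 in ETS1-High and fell by 1.75 in ETS1-Low. CDKN1A, the cell cycle inhibitor p21, rose by 2.49 in ETS1-High and 1.81 in ETS1-Low. Response genes thus rose and fell in both ETS1 groups.

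**Figure D4:**
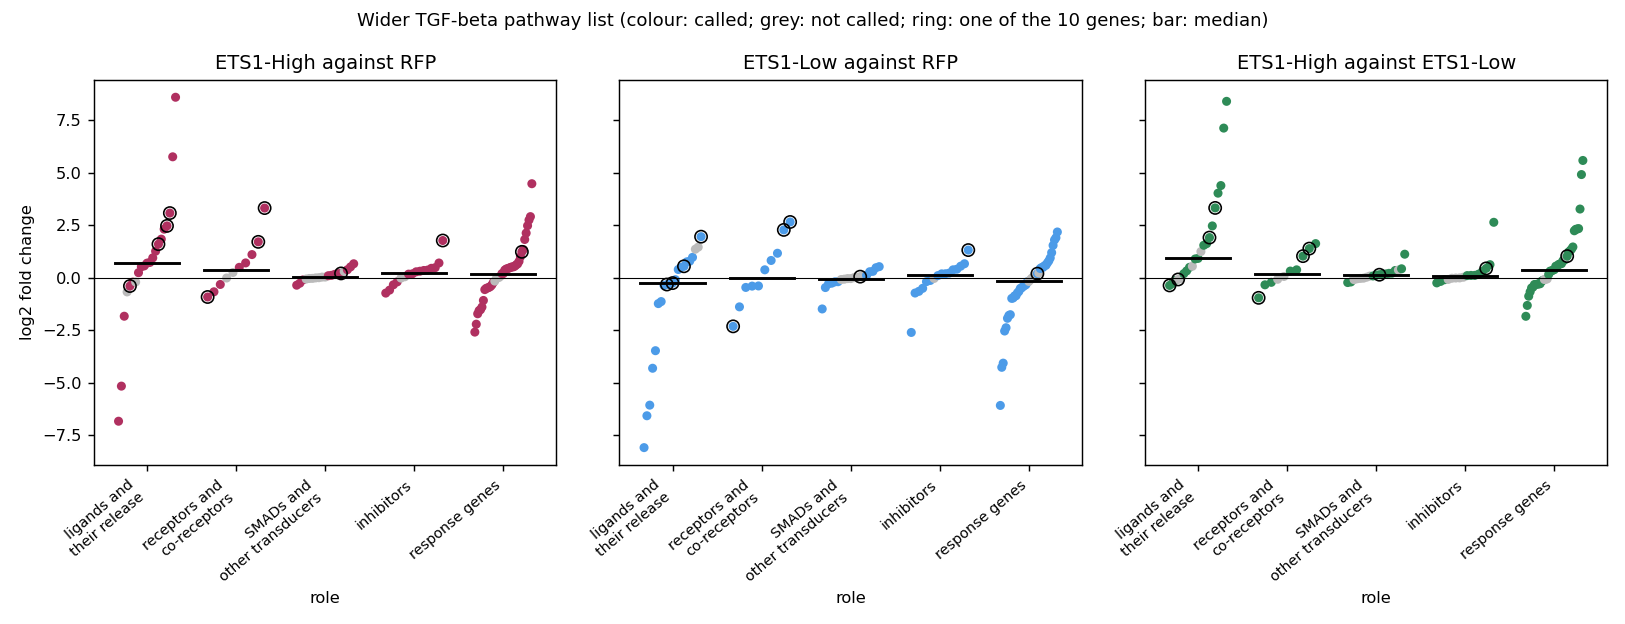
Log2 fold changes of the 107 tested genes of the pathway list by role in the 3 comparisons, with one point per gene (coloured where called, grey where not), rings around the 10 members and a bar for the median. Ligands and their release spread widest and transducers least. The outermost ligand-role points include 3, 2 and 3 genes in the 3 panels with at most 3 counts in every library of 1 of the 2 groups compared. The fitted values of these genes depend on the prior count.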

How the data were processed

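RNA-seq of 9 TC-32 libraries (3 RFP, 3 ETS1-Low, 3 ETS1-High; groups from the sample titles) was analysed. The values deposited by the authors are expected counts per gene and FPKM, the latter per the file headers, and the names of both deposited tables give RSEM as the source. The submitters' processing notes name cutadapt 4.4, STAR 2.7.3, featureCounts in Subread 2.0.3, limma 3.38.3 and GRCh38, with no roles. Stranded libraries are stated, but the strand setting of the counting is not given in the sources used here. Each library held 39484704 to 46654734 expected counts.

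Expected counts were rounded. Over all 58381 genes, of which 26816 held no counts in any library, 9.00% to 10.3% of the values of a library were not whole. Testing used edgeR 4.0.16 (R 4.3.3): filterByExpr, TMM scaling and robust quasi-likelihood tests in 1 fit of all libraries. Benjamini-Hochberg adjustment ran over 17235 genes, with a threshold of 0.05. SE is the log2 fold change divided by the root of F. Library pairs within a group differed by more than counting noise (chi-square per gene 2.66 to 5.19). The test was tried on simulated counts. Alternatives used DESeq2 1.42.0 and limma 3.58.1 on log2(FPKM + 1) or log2(FPKM + 0.1).

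The 10 members, the 121-gene list and the tests were chosen with earlier results of these data known. Genes named from the list were those with the smallest p in each role (where the mean count reached 100): up to 4 in ETS1-High against RFP and up to 2 in ETS1-High against ETS1-Low. FBN1 was named beside FBN2 outside this rule. Neighbours and gene positions came from GENCODE on GRCh38, and promoters from RefSeq (GRCh38.p14), with all 10 members matched by symbol.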

Additional observations from a re-analysis of the deposited data

Results flagged for a closer look

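Only the 10 members, ETS1 and the pathway genes named above, apart from FBN1, were screened here. The following passed the test in opposite directions in the 2 ETS1 groups against RFP, with the ETS1 groups also differing from each other (edgeR). Other genes of the 121-gene list that met this rule, such as ITGB8, FBN1, LOX, POSTN, TNC, IGFBP3 and COL1A1, are not described here. TAGLN was among the 4 genes chosen after their values were seen. The share of all tested genes that met the rule was not counted. LTBP1 differed by 3.34 on the log2 scale (3.09 for ETS1-High and -0.25 for ETS1-Low, relative to RFP, in this order below). BGN differed by 4.04 (0.57 and -3.46) and TAGLN by 2.25 (0.50 and -1.75). MMP2 differed by 1.48 (0.62 and -0.85). SKIL differed by 0.63 (0.46 and -0.17), ITGAV by 0.51 (0.25 and -0.25) and TAB2 by 0.36 (0.11 and -0.25).
On the log2(FPKM + 1) scale of limma the rises of ITGAV and TAB2 in ETS1-High were 0.09 and 0.02 and did not pass the test.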

How the results depend on the processing

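The counts of called members and pathway genes stayed within 1.5 times under all 19 alternatives per comparison. Genes called ranged from 9578 to 13587 in ETS1-High against RFP, 9559 to 13437 in ETS1-Low against RFP and 7385 to 10337 between the ETS1 groups. Of 570 alternative fold changes of members 560 kept direction and call. On log2(FPKM + 1), log2(FPKM + 0.1) and unfiltered log2(FPKM + 1) with limma, TGFB3 between the ETS1 groups was 0.0030, 0.0037 and 0.0030. SMAD3 no longer passed there, at 0.15, 0.16 and 0.15 in ETS1-High against RFP and 0.11, 0.11 and 0.11 between the ETS1 groups. SMAD3 in ETS1-Low against RFP passed without RFP replicate 2 (adjusted p = 0.037, edgeR; leaving out 1 library gave 0.035 to 0.087). Unfiltered FPKM values called 38.1% and 36.5% of changed genes as higher in ETS1-High and ETS1-Low against RFP, where the counts gave 49.8% and 51.2%. With the filter, log2(FPKM + 1) gave 41.3% and 41.6%, and medians over all genes of -0.08 and -0.07. The cause was not tested.

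Of 1938 values for ETS1 and the named pathway genes other than FBN1, 1889 kept direction and call, 23 lost the call, 7 gained one and 19 changed sign. The causes were not tested. PMEPA1 in ETS1-High against RFP turned to -0.36, -0.47 and -0.36 on those 3 FPKM scales and to -0.0048 with upper-quartile scaling. ACVR2A in ETS1-High was 0.0085 with no filter and -0.24, -0.33 and -0.24 on the FPKM scales, where it passed as lower (adjusted p = 0.00733, 0.0112 and 0.00944, limma). USP11 in ETS1-High passed there too, at -0.15, -0.16 and -0.15. SMAD4 in ETS1-Low fell to 0.09 on unfiltered log2(FPKM + 1). TAB2 in ETS1-High was 0.019 on the 3 FPKM scales and no longer passed. TGIF2 between the ETS1 groups was 0.0088 with DESeq2 size factors, 0.0087 with DESeq2 and 0.0015 with at least 10 counts in every library. Leaving out 1 library gave -0.019 to 0.028 for ACVR2A and -0.014 to 0.12 for PMEPA1 in ETS1-High against RFP, and -0.013 to 0.011 for TGIF2 and -0.062 to 0.011 for FURIN between the ETS1 groups. The same replicate numbers did not pair the libraries (deviations correlated at -0.0295 to 0.0276). With the replicate block 10, 9 and 9 members passed in the 3 comparisons, and LTBP1 in ETS1-High against RFP was 3.09.

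With a window of 5 Mb the neighbours' medians, in ETS1-High against RFP, were 0.049 (TGFB2), -0.032 (TGFBR1), 0.14 (TGFBR2), 0.41 (LTBP1) and -0.31 (TGFBI). In ETS1-Low against RFP they were 0.37 (TGFB1), -0.088 (TGFB2), -0.51 (TGFBR1), -0.080 (TGFBR2), 0.19 (TGFBR3), 0.26 (SMAD7) and 0.46 (LTBP1). Between the ETS1 groups they were -0.012 (TGFB1), 0.10 (TGFB2), 0.49 (TGFBR1), -0.19 (TGFBR3), -0.41 (SMAD3), 0.0030 (SMAD7) and 0.049 (LTBP1). The other 11 moved by less than the spread between libraries. SMAD7 (122 to 157 counts in RFP) and TGFB3 (246 to 276 in ETS1-High) had the largest SE of the members.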
